A study of Homo sapiens with 8 samples.

Results

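The genes described here encode the proteins of the mitochondrial ribosome, taken as the symbols that begin with MRPL or MRPS, continue with a number and end there or in A, B or C. RefSeq holds 77 such symbols, and 73 of them were measured by a probe set with 1 gene symbol, out of 18417 genes measured in that way. A gene with more than 1 such probe set was represented by the one that was brightest on average. The other 4 genes, MRPL51, MRPS24, MRPS28 and MRPS6, lie on probe sets shared with a second symbol and are not among the 73. The rule uses symbols only, and no measured value entered it beyond the mean that picked the probe set. The family itself was chosen with earlier results of these data known.

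The mitochondrial ribosome makes the few respiratory chain proteins that the mitochondrial genome encodes. All of its own proteins are encoded in the nucleus, made in the cytosol and imported, and they join ribosomal RNAs transcribed inside the organelle into a large and a small subunit. Compared with a bacterial ribosome the mammalian one has shorter RNAs and many added proteins, so its proteins divide into those with a bacterial counterpart and those without one. By their position in the structure 50 of the 73 measured proteins belong to the large subunit and 23 to the small subunit. MRPS18A and MRPS30 are counted with the large subunit, where they sit in spite of their names.

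Expression was read from 8 Affymetrix GeneChips of the Human Gene 1.0 ST design, in 4 groups of 2 arrays each. The groups were A2780CP20, a subline of the human ovarian carcinoma line A2780, with no treatment, A2780 after 24 h in temsirolimus, A2780 after 48 h in temsirolimus, and A2780 with no treatment. Temsirolimus is an ester of rapamycin that inhibits mTORC1, a kinase complex that promotes cytosolic translation and growth. All cells were grown in RPMI with fetal bovine serum, the drug came from a stock in DMSO, and the labels do not say whether untreated cells received DMSO. The labels do not say that the arrays of a group came from separate cultures. The spread behind each p-value is therefore that between these arrays, and it may be technical. Each cell line is 1 line, so a difference between A2780CP20 and A2780 is one between these lines. RNA was taken from whole cultures, in which fewer cells of a kind and less RNA per cell cannot be told apart.

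Before the results, 1 group has to be set apart. Over all genes, the 2 arrays labelled 24 h correlated with the arrays of the other groups at 0.950 to 0.952, while the other 6 arrays correlated with each other at 0.979 to 0.997. On the 24 h arrays EPCAM, an epithelial surface protein, was 2.17 higher on the log2 scale than in untreated A2780, and COL1A2, a collagen chain of stromal cells, was 5.39 lower. Of 5 stromal markers, 4 were lower at 24 h, and of 11 epithelial markers 2 were higher (limma, adjusted p under 0.05). Of 3 leukocyte markers 1, PTPRC, was higher, at 4.48 and 4.54 on the 24 h arrays, against 4.08 and 3.90 in untreated A2780, and none of 3 endothelial markers was called. In A2780CP20 2 stromal markers were lower, DCN and LUM, and 1 was higher, COL1A1. At 48 h no marker of these lists was called. An exchange of samples or another line behind the 24 h label was not tested, and every result for 24 h below is a result of the arrays so labelled. Against the ovarian carcinoma label, 3 of the 11 epithelial markers lay above the array's median on both untreated arrays (KRT18, PAX8 and CLDN3), as did 4 of the 5 stromal markers, 0 of 3 leukocyte and 0 of 3 endothelial ones. In A2780CP20 the 2 arrays differed from each other more than in the other groups, with an SD of the difference of 0.287 over all genes, against 0.166 to 0.181 elsewhere.

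Values are log2 intensities, and a change is a difference of the means of 2 arrays on each side. A gene was called when limma's two-sided test gave an adjusted p under 0.05, with Benjamini-Hochberg adjustment over all 18417 genes. The brightness of one probe set cannot be set against that of another, so levels are compared between arrays only. All but 2 of the 73 genes lay above the median probe set of every array. MRPL13 was below that median on all 8 arrays and MRPS18C on 6, and neither fell below the lower quartile of any array. For 38 of the 73 genes RefSeq names pseudogenes after them, and RNA from such copies could add to the signal of their probe sets.

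**Figure D1:**
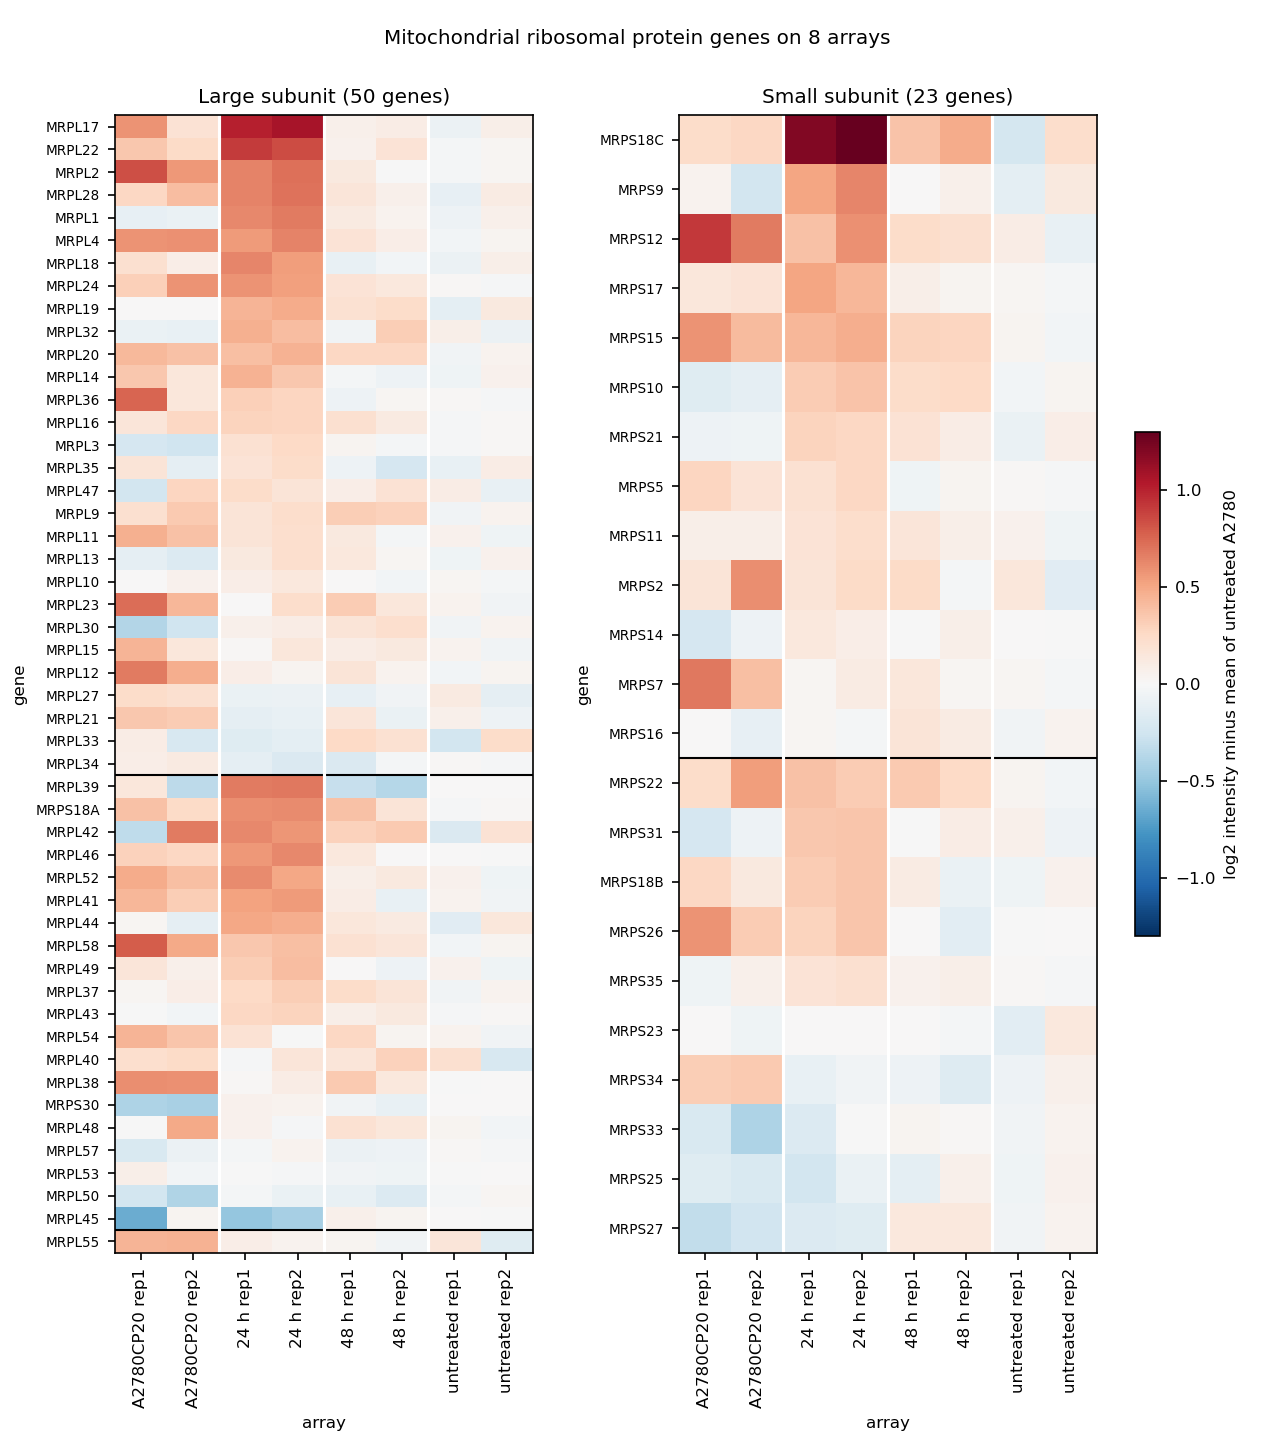
Log2 intensity of the 73 genes on the 8 arrays, minus the gene's mean in untreated A2780; columns are arrays and rows are genes, with the large subunit on the left and the small subunit on the right. Black lines part the proteins with a bacterial counterpart (above) from those without one and, at the foot of the left panel, MRPL55, which was not put in either class; the 24 h columns are red for most genes, with MRPS18C and MRPL17 the darkest.

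On the arrays labelled 24 h, mitochondrial ribosomal protein genes were higher than in untreated A2780 far more often than lower. Of the 73 genes, 32 rose and 0 fell, where 14.9% of all genes rose and 15.3% fell. The median change of the 73 was 0.24 on the log2 scale, against 0.01 over all genes, and the changes ran between -0.47 and 1.27. Proteins of both subunits were among those that rose, 23 of 50 in the large subunit and 9 of 23 in the small one. The genes measured here are bright, so a closer background is the 8895 brighter protein-coding genes, those above the median gene, of which 20.4% rose and 23.3% fell. Leaving out the first 24 h array left 19 that rose, leaving out the second left 15, and leaving out the first untreated array left 18. The median was between 0.23 and 0.28 in all 8 fits that left out 1 array.

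MRPS18C had the largest change. It encodes 1 of 3 mammalian relatives of a single bacterial small subunit protein, and the one that takes the bacterial place. Its probe set read 6.87 and 6.99 on the 24 h arrays, against 5.44 and 5.89 on the untreated arrays. The 24 h values lay above both untreated values by a margin wider than the gap between the untreated arrays. The change was 1.27 with an SE of 0.143, or 2.40-fold (limma, adjusted p = 0.000231). The probe set is dim, and on the 48 h arrays it read 6.04 and 6.15. RefSeq names 6 pseudogenes after MRPS18C, and RNA from such copies could add to this signal.

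The other relatives are MRPS18A, in the large subunit, and MRPS18B, in the small subunit. MRPS18A read 9.34 and 9.35 at 24 h, against 8.72 and 8.76 in untreated A2780, a change of 0.61 with an SE of 0.103 (limma, adjusted p = 0.0023). MRPS18B read 9.72 and 9.75 at 24 h, against 9.33 and 9.44 in untreated A2780, a change of 0.35 with an SE of 0.104 (limma, adjusted p = 0.034). All 3 relatives were therefore called higher at 24 h, with no overlap of arrays. The call of MRPS18B was lost without either untreated array and without either 24 h array, with adjusted p between 0.0728 and 0.179.

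MRPL17 and MRPL22 had the largest changes in the large subunit. MRPL22 is the relative of a protein that lines the tunnel through which the new chain leaves the ribosome, and MRPL17 is the relative of a protein near the mouth of that tunnel. MRPL17 read 10.33 and 10.39 at 24 h, against 9.24 and 9.40 in untreated A2780. Its change was 1.04 with an SE of 0.133, or 2.06-fold (limma, adjusted p = 0.000466). MRPL22 read 8.81 and 8.75 at 24 h, against 7.87 and 7.93 in untreated A2780, a change of 0.88 with an SE of 0.0933 (limma, adjusted p = 0.000159). In both genes the gap between the groups was several times the gap between arrays of a group.

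The stretches before the starts of these genes are shown because these 2 members moved most in the large subunit and hold matches of the 4 motifs that were searched. Each run is the 250 bases upstream of the RefSeq start on GRCh38.p14, read 5′ to 3′ on the gene's strand. MRPL17 lies on the minus strand (chr11:6683341-6683590), and its capitals mark 2 places with the NRF1 motif. MRPL22 lies on the plus strand (chr5:154940823-154941072), and its capitals mark the E-box and, nearer the start, the NRF1 motif.
MRPL17: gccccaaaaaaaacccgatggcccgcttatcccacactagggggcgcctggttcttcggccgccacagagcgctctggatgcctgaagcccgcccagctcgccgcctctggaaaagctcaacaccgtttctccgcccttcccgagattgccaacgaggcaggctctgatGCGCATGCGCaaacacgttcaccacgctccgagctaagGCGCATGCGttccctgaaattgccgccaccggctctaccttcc
MRPL22: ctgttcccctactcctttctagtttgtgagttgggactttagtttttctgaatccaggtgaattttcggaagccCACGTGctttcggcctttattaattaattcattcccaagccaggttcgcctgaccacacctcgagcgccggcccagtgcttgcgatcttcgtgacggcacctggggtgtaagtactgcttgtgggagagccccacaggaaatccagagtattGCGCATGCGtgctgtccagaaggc

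The next genes by size of change at 24 h were MRPL39, MRPL2, MRPL28 and MRPL1. MRPL39 is a large subunit protein with no bacterial counterpart. It read 9.89 and 9.90 at 24 h, against 9.21 and 9.21 in untreated A2780, a change of 0.69 with an SE of 0.146 (limma, adjusted p = 0.00745). MRPL2 is the relative of a bacterial protein beside the peptidyl transferase centre, where peptide bonds are made. It read 10.71 and 10.79 at 24 h, against 10.04 and 10.10 in untreated A2780, a change of 0.68 (SE 0.115; limma, adjusted p = 0.00225). The arrays of the 2 groups were apart in each of these genes.

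MRPL28 is a large subunit protein with a bacterial counterpart, and it read 9.89 and 9.96 at 24 h, against 9.14 and 9.36 in untreated A2780. Its change was 0.68 with an SE of 0.107 (limma, adjusted p = 0.00159). MRPL1 is the relative of a protein of the mobile stalk beside which spent tRNA leaves the bacterial ribosome. It read 10.51 and 10.57 at 24 h, against 9.82 and 9.96 in untreated A2780, a change of 0.65 (SE 0.0923; limma, adjusted p = 0.00086). Both genes lay higher on each 24 h array than on each untreated array.

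The remaining 23 genes that rose at 24 h had changes between 0.28 (MRPL43) and 0.60 (MRPL4). MRPL4 and MRPL24 are relatives of proteins at the 2 ends of the exit tunnel, and their changes were 0.60 and 0.56. The largest changes among the others of the small subunit were those of MRPS9, at 0.57, MRPS12, at 0.49, and MRPS17, at 0.48. Of the 41 genes not called at 24 h, MRPL45 had the lowest change. It read 11.83 and 11.90 at 24 h, against 12.34 and 12.33 in untreated A2780. Its change of -0.47 did not pass the test (limma, adjusted p = 0.094). At 24 h calls were made for 15 of the 38 genes that have named pseudogene copies and 17 of the 35 that have none. In A2780CP20, where 6.37% of all genes were called higher, 6 of the 38 and 13 of the 35 were called higher. The difference between genes with and without copies was not tested.

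**Figure D2:**
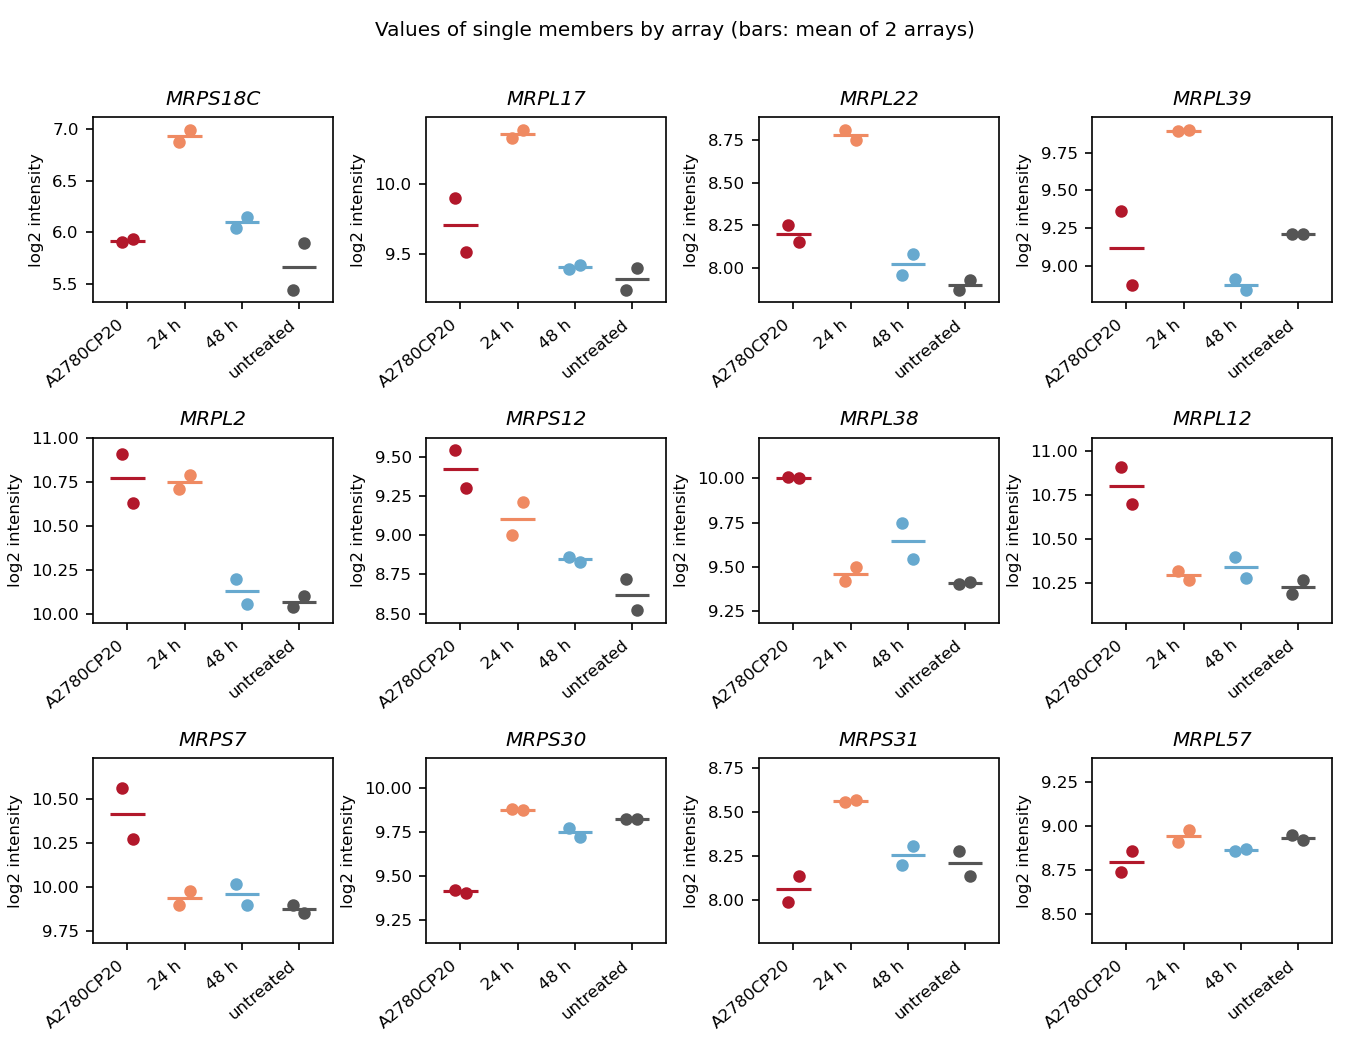
Log2 intensity of 12 of the genes on each array (points) and the mean of the 2 arrays of a group (bars), with groups on the horizontal axis and a scale of its own for each gene. MRPS18C, MRPL17, MRPL22 and MRPL39 stand highest on the 24 h arrays, MRPL38, MRPL12 and MRPS7 stand highest in A2780CP20, and MRPL2 and MRPS12 are high in both.

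At 48 h the mitochondrial ribosomal protein genes were close to untreated A2780. None of the 73 was called in either direction (limma; 0.163% of all genes were called higher and 0.0163% lower), and the smallest adjusted p was 0.295, for MRPL9. At an unadjusted p under 0.05 (limma), 8 of the 73 were higher and 1 was lower. At that limit 819 of all 18417 genes were higher and 1224 were lower. The median change was 0.085 on the log2 scale, against -0.03 over all genes. Arrays of the 2 groups did not overlap in 31 genes that were higher at 48 h and in 6 that were lower, where 19.6% and 27.2% of all genes did so. No alternative called any of the 73.

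MRPL9, a large subunit protein with a bacterial counterpart, read 10.83 and 10.81 at 48 h, against 10.46 and 10.56 in untreated A2780, a difference of 0.31 (SE 0.0931). MRPS18C had the largest difference at 48 h, 0.43, with an adjusted p of 0.337 (limma). MRPL39 had the lowest, with 8.91 and 8.84 at 48 h, against 9.21 on each untreated array, a difference of -0.34 (limma, adjusted p = 0.448). Its 48 h values lay below both untreated values, while its 24 h values lay above them.

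Set directly against 24 h, the 48 h arrays had lower values for 21 genes and a higher one for 1, where 15.7% of all genes were called lower and 15.2% higher. The median difference of the 73 was -0.14, against -0.055 over all genes. Without the first 24 h array or without the second 48 h array, 13 genes were called lower. This comparison shares the 24 h arrays with the one above, so the genes that were high at 24 h enter both. MRPL39 had the largest difference, -1.02 (SE 0.146; limma, adjusted p = 0.000882). MRPL17 differed by -0.96, MRPS18C by -0.84 and MRPL22 by -0.76, and in each of them the arrays of the 2 times did not overlap.

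MRPS27 was the 1 gene called higher at 48 h than at 24 h. It is a small subunit protein without a bacterial counterpart, of a family that binds RNA. It read 11.27 and 11.27 at 48 h, against 10.96 and 10.98 at 24 h, and 11.09 and 11.18 in untreated A2780. The difference between the times was 0.30 with an SE of 0.0878 (limma, adjusted p = 0.0309). The call was lost without any 1 of the 4 arrays of these times, with adjusted p between 0.123 and 0.148.

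In A2780CP20 the genes also stood higher than in untreated A2780 more often than lower. Of the 73 genes, 19 rose and 2 fell, where 6.37% of all genes rose and 12% fell. The median change was 0.20 on the log2 scale, against 0.03 over all genes, and the changes ran between -0.41 and 0.80. Among the 8895 brighter coding genes 9.87% rose and 19.6% fell. The count rests on the untreated arrays and on the spread taken from all 4 groups. It was 6 higher and 0 lower without either untreated array, 4 higher and 0 lower with the 2 groups alone in the fit, and 14 higher and 1 lower without the 24 h arrays. This comparison shares the untreated arrays with those of the treated groups.

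MRPS12 had the largest change. It is the relative of a bacterial protein at the decoding centre, where the ribosome checks the match of codon and anticodon. It read 9.54 and 9.30 in A2780CP20, against 8.72 and 8.52 in untreated A2780. The change was 0.80 with an SE of 0.124, or 1.74-fold (limma, adjusted p = 0.00472). The A2780CP20 arrays differed by more than the untreated arrays did and still lay above both of them.

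Several large subunit genes followed in size. MRPL2 read 10.91 and 10.63 in A2780CP20, against 10.04 and 10.10 in untreated A2780, a change of 0.70 (SE 0.115; limma, adjusted p = 0.00586). MRPL58 encodes a peptidyl-tRNA hydrolase that is built into the ribosome and can release stalled chains. It read 10.50 and 10.20 in A2780CP20, against 9.67 and 9.75 in untreated A2780, a change of 0.64 (SE 0.113; limma, adjusted p = 0.00745). MRPL58 was called without either A2780CP20 array, and without the first untreated array its adjusted p was 0.0561.

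MRPL38, a large subunit protein with no bacterial counterpart, read 10.01 and 10.00 in A2780CP20, against 9.40 and 9.41 in untreated A2780. Its change was 0.60 with an SE of 0.0991 (limma, adjusted p = 0.00599). In this gene the arrays of each group differed by 0.01, the resolution of the values. MRPL4 read 9.02 and 9.03 in A2780CP20, against 8.40 and 8.48 in untreated A2780 (change 0.59, SE 0.0904; limma, adjusted p = 0.00472).

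MRPL12 and MRPL10 form the flexible stalk of the large subunit on which translation factors act, and MRPL11 lies at its base. MRPL12 read 10.91 and 10.70 in A2780CP20, against 10.19 and 10.27 in untreated A2780, a change of 0.58 (SE 0.104; limma, adjusted p = 0.00824). MRPL11 read 10.06 and 9.98 in A2780CP20, against 9.65 and 9.54 in untreated A2780, a change of 0.43 (SE 0.097; limma, adjusted p = 0.0194). MRPL10 read 9.39 and 9.44 in A2780CP20, against 9.41 and 9.35 in untreated A2780, so its arrays overlapped. MRPL12 lost its call without the first untreated array (adjusted p = 0.0598), and MRPL11 lost it without either untreated array and without the first A2780CP20 array.

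MRPL23, at the exit of the tunnel, read 9.94 and 9.64 in A2780CP20, against 9.26 and 9.16 in untreated A2780 (change 0.58, SE 0.133; limma, adjusted p = 0.0199). MRPS7, a relative of a bacterial protein of the small subunit's head, read 10.56 and 10.27 in A2780CP20, against 9.90 and 9.85 in untreated A2780 (change 0.54, SE 0.115; limma, adjusted p = 0.015). Arrays did not overlap in either gene. Both calls were lost without either untreated array, and that of MRPL23 also without the first A2780CP20 array.

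The 2 genes that fell in A2780CP20 were MRPS30 and MRPL30. MRPS30 sits in the large subunit and has no bacterial counterpart. It read 9.42 and 9.40 in A2780CP20, against 9.82 and 9.82 in untreated A2780, a change of -0.41 (SE 0.0837; limma, adjusted p = 0.0131). MRPL30 read 10.01 and 10.13 in A2780CP20, against 10.34 and 10.44 in untreated A2780, a change of -0.32 (SE 0.0921; limma, adjusted p = 0.0445). The call of MRPS30 was lost without either untreated array, and that of MRPL30 in 11 of the alternatives, quantile normalization among them.

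MRPL38 and MRPL12 are the genes with the largest differences between A2780CP20 and the 24 h arrays on the A2780CP20 side, and their upstream windows are shown for that reason. Each run is the 250 bases before the RefSeq start on GRCh38.p14, 5′ to 3′ on the gene's strand. MRPL38 lies on the minus strand (chr17:75904885-75905134), and its capitals mark the ETS motif, read here on the other strand. MRPL12 lies on the plus strand (chr17:81703117-81703366) and holds none of the 4 motifs.
MRPL38: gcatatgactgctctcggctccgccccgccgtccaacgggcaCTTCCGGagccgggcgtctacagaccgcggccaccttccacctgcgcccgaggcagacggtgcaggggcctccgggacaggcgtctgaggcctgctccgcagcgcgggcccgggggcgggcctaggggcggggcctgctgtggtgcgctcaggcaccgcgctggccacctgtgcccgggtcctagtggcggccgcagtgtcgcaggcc
MRPL12: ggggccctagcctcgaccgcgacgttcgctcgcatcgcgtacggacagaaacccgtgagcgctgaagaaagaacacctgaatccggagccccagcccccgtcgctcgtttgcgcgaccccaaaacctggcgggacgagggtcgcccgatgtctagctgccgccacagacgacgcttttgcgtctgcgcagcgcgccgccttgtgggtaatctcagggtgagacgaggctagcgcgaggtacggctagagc

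**Figure D3:**
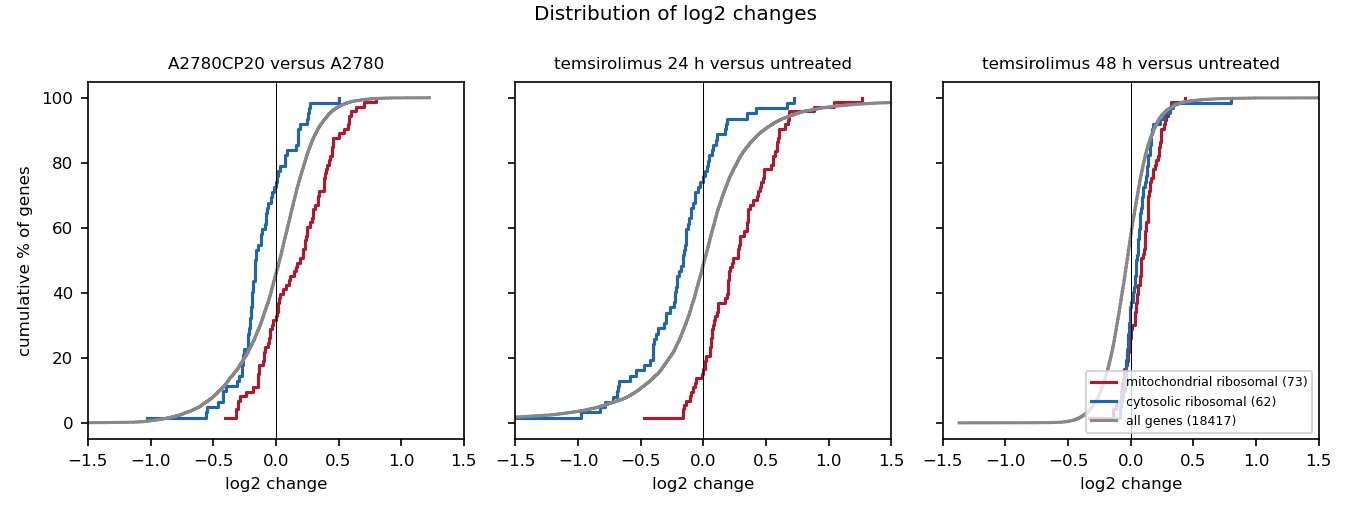
Cumulative percent of genes (vertical axis) up to a given log2 change (horizontal axis) for the 73 mitochondrial ribosomal protein genes, 62 cytosolic ribosomal protein genes and all 18417 genes, in A2780CP20, at 24 h and at 48 h against untreated A2780. At 24 h the curve of the mitochondrial genes lies right of that of all genes, with a median of 0.24, and that of the cytosolic genes left of it, with a median of -0.16; changes beyond the ends of the axis are not drawn.

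The 24 h arrays and the A2780CP20 arrays were also set against each other. Between them 21 genes were called higher at 24 h and 8 lower, where 17.8% of all genes were called higher and 15.9% lower. Among the 8895 brighter coding genes 26.1% were called higher and 22.5% lower. The share of the 73 called higher was near this closer background, and the share called lower was below it. The median difference was 0.12 over the 73, against -0.03 over all genes. Without the first 24 h array 11 were called higher and 2 lower, and without the second 12 and 5. The median under quantile normalization was 0.052.

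MRPS18C had the largest difference, with 6.87 and 6.99 at 24 h, against 5.90 and 5.93 in A2780CP20, or 1.02 (SE 0.143; limma, adjusted p = 0.000811). MRPL39 read 9.89 and 9.90 at 24 h, against 9.36 and 8.87 in A2780CP20, a difference of 0.78 (SE 0.146; limma, adjusted p = 0.00366). The A2780CP20 arrays of MRPL39 lay on either side of the untreated value. MRPL1, MRPS9, MRPL17, MRPL22, MRPL44 and MRPL32 were also higher at 24 h, by 0.75, 0.67, 0.66, 0.58, 0.53 and 0.53. MRPL44 has the fold of an enzyme that cuts double-stranded RNA, and MRPL32 is trimmed after import by a protease of the inner membrane.

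On the other side, MRPL38 was 0.55 lower at 24 h than in A2780CP20, with 9.42 and 9.50 at 24 h, against 10.01 and 10.00 in A2780CP20 (limma, adjusted p = 0.00319). MRPL12 read 10.32 and 10.27 at 24 h, against 10.91 and 10.70 in A2780CP20, a difference of -0.51 (SE 0.104; limma, adjusted p = 0.0057). MRPS7 was lower at 24 h than in A2780CP20 by 0.475, MRPL23 by 0.465 and MRPL21 by 0.445. MRPS34, MRPL55 and MRPL27 were lower by smaller amounts, with differences of -0.41, -0.38 and -0.30. MRPS34 keeps the small subunit's RNA stable, and MRPL27 is the relative of a bacterial protein that reaches into the peptidyl transferase centre. Of 16 alternatives, the call of MRPL27 was lost in 9, that of MRPL55 in 6, that of MRPL23 in 3, those of MRPS7 and MRPL21 in 2 each and that of MRPS34 in 1. MRPL38 and MRPL12 were called in all 16. The limit of 1.5-fold is not among these 16, and with it no member was called lower at 24 h than in A2780CP20.

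Other members had similar values in both. MRPL2 was 0.68 above untreated A2780 at 24 h and 0.70 above it in A2780CP20. MRPL4 was 0.60 above it at 24 h and 0.59 in A2780CP20, and MRPL20 was 0.43 above it at 24 h and 0.41 in A2780CP20. These pairs of changes share the untreated arrays. The direct differences between 24 h and A2780CP20 were -0.02 for MRPL2, 0.01 for MRPL4 and 0.02 for MRPL20, and none was called. Over all 5 comparisons, 24 of the 73 genes were called in none.

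**Figure D4:**
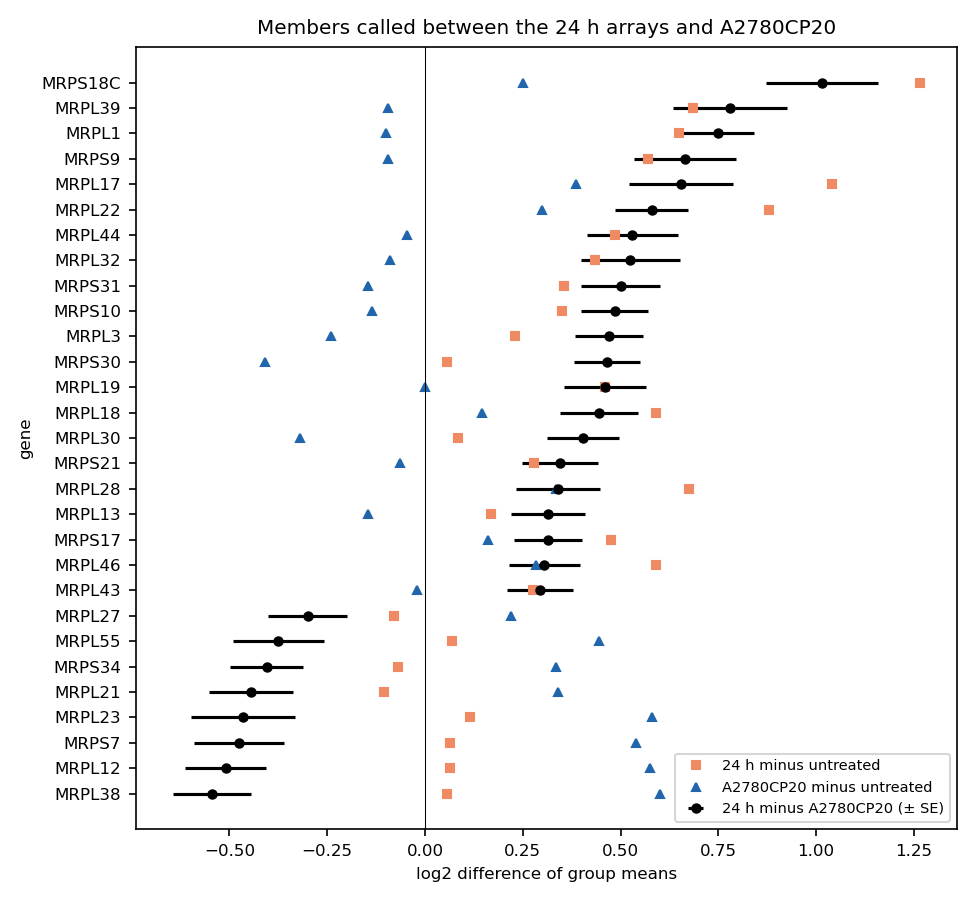
The 29 genes called between the 24 h arrays and A2780CP20, one per line, with the difference of the 2 groups and its SE (black) and the change of each group against untreated A2780 (squares for 24 h, triangles for A2780CP20) on a log2 axis. The 21 genes at the top are higher at 24 h and the 8 at the foot are higher in A2780CP20, where MRPL38, MRPL12, MRPS7 and MRPL23 lie near 0.06 to 0.12 at 24 h.

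Counts were also taken by class of protein. At 24 h, where 14.9% of all genes rose, 13 of 29 large subunit proteins with a bacterial counterpart rose and 10 of 20 without one. In the small subunit, 6 of 13 proteins with a bacterial counterpart rose and 3 of 10 without one. In A2780CP20, where 6.37% of all genes rose, the counts were 7 of 29 and 5 of 20 in the large subunit, and 3 of 13 and 3 of 10 in the small subunit. MRPS18A and MRPS18B are counted here as without a bacterial counterpart, although they are relatives of the same bacterial protein as MRPS18C, and both rose at 24 h. Differences between the classes were not tested. For 4 more proteins of the mitochondrial ribosome that go under other names, DAP3 fell in A2780CP20, with a change of -0.41, and CHCHD1 rose at 24 h, with a change of 0.35. DAP3 is a GTP-binding protein of the small subunit.

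Promoter windows were found in RefSeq for 66 of the 73 genes. In the 250 bases before the start, 22 of the 66 (33.3%) held the ETS motif CCGGAAG on either strand, against 11.8% of the windows of 15843 protein-coding genes. The NRF1 motif CGCANGCGC was in 10 (15.2%), against 9.75% of all, the YY1 motif AANATGGC in 5 (7.58%), against 3.65%, and the E-box CACGTG in 6 (9.09%), against 7.84%. No matches of different motifs overlapped, and 35 windows held at least 1 of the 4. Among the members that rose at 24 h and have a window, 8 of 31 held the ETS motif, among those that rose in A2780CP20 7 of 17 did, and among those called in neither comparison 9 of 25 did. The NRF1 motif was in 5 of these 31 (16.1%), in 0 of the 17 and in 4 of the 25 (16%), so its shares were alike at 24 h and in neither. For the E-box the counts were 4 of 31, 0 of 17 and 2 of 25. A match of letters is a description and not a site.

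Many of the genes start back to back with a neighbour, and 18 such pairs had both genes measured. In 9 pairs the mitochondrial ribosomal protein gene was called at 24 h. In 3 of these 9 the neighbour was called too, in the same direction in 1, which is near the share of all genes called at 24 h (14.9% higher and 15.3% lower). That pair was MRPL32 and PSMA2, a proteasome subunit gene, with changes of 0.44 and 0.40. In the other 2 the partners went opposite ways. MRPS12 rose by 0.49 while SARS2, the mitochondrial seryl-tRNA synthetase gene that starts 181 bases away, fell by 0.585 (limma, adjusted p = 0.00152). The 24 h call of MRPS12 was lost without the second 24 h array (adjusted p = 0.13) and without the second untreated array (adjusted p = 0.119). MRPS18C rose by 1.27 while HELQ, a DNA helicase gene that starts 175 bases away, fell by 0.39 (limma, adjusted p = 0.0249).

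The stretches between the starts of these 2 pairs are shown because each lies before the starts of both partners. They are given on the plus strand of GRCh38.p14, on which MRPS12 and MRPS18C run to the right and SARS2 and HELQ to the left. The first holds none of the 4 motifs, and the capitals in the second mark the NRF1 motif. They lie at chr19:38930764-38930943 and chr4:83455884-83456057.
MRPS12 and SARS2: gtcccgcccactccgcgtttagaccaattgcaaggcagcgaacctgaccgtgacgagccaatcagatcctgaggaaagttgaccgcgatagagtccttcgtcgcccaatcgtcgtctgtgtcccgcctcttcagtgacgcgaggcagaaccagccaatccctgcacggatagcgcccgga
MRPS18C and HELQ: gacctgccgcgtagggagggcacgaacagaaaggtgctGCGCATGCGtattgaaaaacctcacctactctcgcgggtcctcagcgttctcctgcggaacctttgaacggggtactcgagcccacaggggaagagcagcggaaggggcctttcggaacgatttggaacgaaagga

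MRPL46 and MRPS11, a large and a small subunit gene, start 320 bases apart and face away from each other. At 24 h MRPL46 rose by 0.59 (limma, adjusted p = 0.00137), while MRPS11 had a difference of 0.21 that did not pass the test (limma, adjusted p = 0.131). The difference between these partners was not tested.

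By chromosome, all 6 members on chromosome 6 rose at 24 h, with changes between 0.35 and 0.68. The 433 brighter coding genes of that chromosome had a median change of 0.04, and 25.4% of them rose. In A2780CP20, 4 of 8 members on chromosome 1, 4 of 8 on chromosome 17 and 3 of 4 on chromosome 19 rose, where 8.46%, 16.8% and 18.6% of the brighter coding genes of those chromosomes rose. Of the genes described above with the largest changes in A2780CP20, MRPS12 and MRPL4 lie on chromosome 19, MRPL58, MRPL38, MRPL12 and MRPS7 on chromosome 17, MRPL2 on chromosome 6 and MRPL23 on chromosome 11. These chromosomes were picked after their values were seen, and no difference between chromosomes was tested. At 24 h the median member on chromosome 17 was 0.06 and the median of the 571 brighter coding genes there was -0.09.

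Chromosome 13 stood apart at 24 h, with a median change of -0.46 over its 150 brighter coding genes, of which 54.7% fell. It carries 2 members, MRPS31 and MRPL57. MRPS31, a small subunit protein without a bacterial counterpart, read 8.56 and 8.57 at 24 h, against 8.28 and 8.14 in untreated A2780, and rose by 0.36 (SE 0.1; limma, adjusted p = 0.0271). The call was lost without either 24 h array and without either untreated array. MRPL57 read 8.91 and 8.98 at 24 h, against 8.95 and 8.92 in untreated A2780, so its arrays overlapped. MRPS31P5, a pseudogene of MRPS31 on the same chromosome with a probe set of its own, read 6.21 and 6.27 at 24 h, against 6.74 and 6.57 in untreated A2780, a change of -0.41 (limma, adjusted p = 0.0138).

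**Figure D5:**
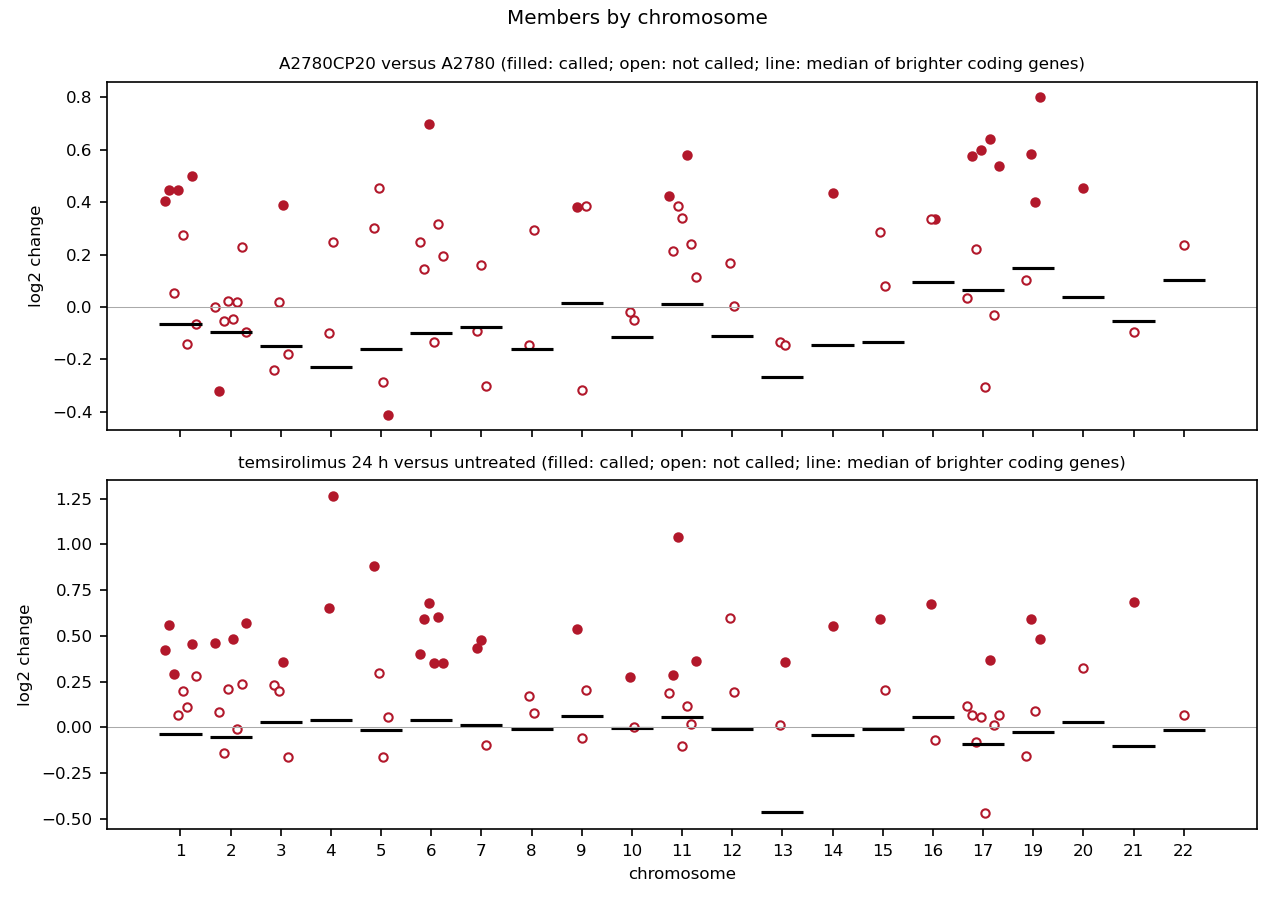
Log2 change of each of the 73 genes by chromosome, in A2780CP20 (top) and at 24 h (bottom) against untreated A2780; filled points were called, open points were not, and black lines are the median of the brighter coding genes of the chromosome. In A2780CP20 the highest points lie on chromosome 19, with MRPS12 at 0.80, and at 24 h all 6 points of chromosome 6 are filled while the line of chromosome 13 lies at -0.46.

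Genes for the building and working of the mitochondrial ribosome are read against the brighter coding genes, of which 20.4% rose and 23.3% fell at 24 h and 9.87% rose and 19.6% fell in A2780CP20. Of 25 assembly factors 7 (28.0%) rose and 0 fell at 24 h, with a median change of 0.25. MRM2 and MRM3, methyltransferases of the large subunit's RNA, had changes of 0.83 and 0.77, MTG2, a GTPase of large subunit assembly, had 0.76, and MRM1 had 0.66. MRM2 read 10.82 and 10.84 at 24 h, against 10.08 and 9.93 in untreated A2780. In A2780CP20 4 of the 25 (16.0%) rose and 2 (8%) fell, with a median of 0.02.

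Of 15 translation factors 4 (26.7%) rose and 2 (13.3%) fell at 24 h, shares not far from that background. GFM1, the elongation factor that moves the ribosome along the message, rose by 0.69, MTFMT, which formylates the initiator tRNA, by 0.43, TUFM, the factor that delivers tRNAs, by 0.38, and TSFM, its exchange factor, by 0.31. GFM1 read 10.00 and 10.07 at 24 h, against 9.30 and 9.39 in untreated A2780. MTRF1, a release factor, fell by 0.475, and LRPPRC, which keeps mitochondrial messages stable, fell by 0.325. In A2780CP20 TACO1 and TUFM rose, by 0.62 and 0.51, and MTRF1 fell by 0.605.

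Of 16 mitochondrial tRNA synthetases 6 (37.5%) rose and 2 (12.5%) fell at 24 h, with MARS2 at 0.92 the highest, and SARS2 at -0.59 and IARS2 at -0.45 the 2 that fell. In A2780CP20 2 (12.5%) rose and 3 (18.8%) fell. Of 11 genes that transcribe or maintain mitochondrial DNA, 2 rose and 2 fell at 24 h (18.2% each), which is near the background. SSBP1 and TWNK rose at 24 h, by 0.39 and 0.34, and MGME1 and TFB2M fell, by 0.375 and 0.335. In A2780CP20 POLRMT, the mitochondrial RNA polymerase, rose by 0.67, and 3 fell, MGME1, POLG2 and TEFM. The mitochondrially encoded genes themselves were not measured by a probe set with 1 symbol.

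Regulators of mitochondrial biogenesis were measured for 9 genes, and 2 rose and 2 fell at 24 h (22.2% each), again near the background. At 24 h ESRRA, a nuclear receptor, and GABPB1 rose, by 0.46 and 0.63, while MYC fell by 1.415 and GABPA by 0.75. GABPA and GABPB1 are the DNA-binding and the activating subunit of an ETS factor. MYC read 10.55 and 10.56 at 24 h, against 12 and 11.94 in untreated A2780, which is the widest gap in this list. In A2780CP20 PPARGC1B, PPRC1 and ESRRA rose, by 0.65, 0.53 and 0.47, and GABPA fell by 0.53.

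Of 62 cytosolic ribosomal protein genes 3 (4.84%) rose and 19 (30.6%) fell at 24 h, where 14.9% of all genes rose and 15.3% fell. Among the brighter coding genes 20.4% rose and 23.3% fell, so the share that fell is less far from this background. Their median change was -0.16, against a median of 0.24 for the mitochondrial genes. In A2780CP20 0 rose and 8 (12.9%) fell, with a median of -0.16. That share is close to the 12% of all genes that fell and below the 19.6% of the brighter coding genes. At 48 h none was called, with a median of 0.048. Between 48 h and 24 h, 26 cytosolic genes were called higher and 3 lower, where 15.2% of all genes were called higher and 15.7% lower. The contrast between the 2 kinds of ribosome was not tested as such. Cytosolic ribosomal protein genes have many processed copies in the genome, and RNA from such copies could add to the signal of their probe sets. How specific these probe sets are was not tested.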

How the data were processed

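The data are 8 arrays of the Affymetrix Human Gene 1.0 ST design, 2 in each of 4 groups named in the sample titles. The deposited values are taken as log2 intensities, which was read from their range of 1.80 to 14.99. The sources used here do not state the log base, background correction or normalization, and Partek is named, with no version, in the submitters' processing notes. Array medians lay between 6.66 and 6.72, and the number of arrays limits the precision. Symbols come from the array platform's annotation: 19460 of 33297 had 1 symbol and 1754 had several. All 73 members matched RefSeq by gene number. MRPL20 and MRPS18B have further probe sets with identical values, and MRPL36 has a second one with changes of 0.42 at 24 h and 0.36 in A2780CP20, against 0.30 and 0.46 on the one used.

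limma 3.58.1 in R 4.3.3 fitted 1 mean per group over all arrays and 18417 genes, with empirical Bayes moderation (4 residual and 4.48 prior degrees of freedom). The 4 comparisons planned, and that of 24 h with A2780CP20, added after the data were seen, were tested two-sided with Benjamini-Hochberg adjustment over all genes. Values in every array are given for up to 8 called members a direction and comparison with the largest change and no overlap of arrays, for the MRPS18, stalk and chromosome 13 genes and a few others, and from other lists for up to 4 called genes. The members and lists were chosen with earlier results of these data known. The fit was tested on simulated data. Alternatives were quantile normalization, median centring, a filter on dim genes, the mean of a gene's probe sets, the replicate number as a block, leaving out each array, other priors, fits of 2 groups, a fit without the 24 h arrays and a limit of 1.5-fold. Promoter windows and gene order come from RefSeq tables of GRCh38.p14, and the array annotation's build is not stated in the sources used here.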

Additional observations from a re-analysis of the deposited data

Results flagged for a closer look

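For 22 members the change at 48 h differed from the change at 24 h, both against untreated A2780, by a test of the difference itself (limma, adjusted p between 0.000358 and 0.0457). The untreated mean cancels in that difference, so it equals the difference between the 48 h and the 24 h arrays. It shares their arrays with the comparisons in the report. Between these arrays 5702 of all 18417 genes were called, so 22 of 73 is near the share of all genes. Of the 73, 21 were called lower and 1 higher, where 15.7% of all genes were called lower and 15.2% higher. For MRPL39 the change was -0.34 at 48 h and 0.69 at 24 h, a difference of -1.02. MRPL17 had 0.085 at 48 h and 1.04 at 24 h, a difference of -0.955. For MRPS18C, MRPL22, MRPL18 and MRPL2 the differences were -0.835, -0.76, -0.655 and -0.62. MRPL1, MRPL28, MRPL41, MRPS9 and MRPL46 differed by -0.565, -0.56, -0.54, -0.53 and -0.52. For MRPL4 the difference was -0.46, for MRPL52 and for MRPL14 it was -0.45, for MRPS17 -0.42 and for MRPL24 -0.405. MRPL49 and MRPS26 each differed by -0.395, MRPS18B by -0.34, MRPS18A by -0.33 and MRPS31 by -0.31. MRPS27 alone among the 22 differed upwards, by 0.30. Of 16 alternatives the difference lost its call in 8 for MRPS31, in 6 each for MRPS18A and MRPS18B and in 4 for MRPS27, and in none for MRPL39, MRPL17, MRPS18C, MRPL22, MRPL18, MRPL2, MRPL1 and MRPL28. The other 10 were not recomputed one by one. Whether the 24 h arrays hold the cells their label names was not tested.

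Outside the 73 genes, the probe set that carries both MRPS28 and TPD52 read 8.69 and 8.79 at 24 h, against 7.69 and 8.17 in untreated A2780, a change of 0.81 (SE 0.189; limma, adjusted p = 0.0255, over a fit that includes the probe sets with several symbols). The probe set of MRPS6 and SLC5A3 went the other way, with 9.16 and 9.25 at 24 h, against 10.06 and 10.05 in untreated A2780. Its change was -0.85 at 24 h (limma, adjusted p = 0.000785) and -0.45 in A2780CP20 (limma, adjusted p = 0.0259), in the same fit. Those of MRPL51 and MRPS24 were not called in either comparison. Which of the 2 genes of a shared probe set gave the signal cannot be told apart.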

How the results depend on the processing

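For 52 called results of named members the change was recomputed, and the direction held in all 843 recomputations. The call was lost in 97 of them, among 23 of the 52 results. Other changes named above, such as those of MRPL24 and MRPS9 at 24 h, were not recomputed one by one. The numbers of members called moved more. For A2780CP20, 19 called higher became 4 with the 2 groups alone in the fit, 5 with at least 1.5-fold, and 6 to 23 when 1 array was left out, lowest without either untreated array. The 2 called lower became 0 with the 2 groups alone or with 1.5-fold, 1 under quantile normalization, under median centring and without both 24 h arrays, 4 without the dimmest genes, 5 with an intensity trend, and 0 to 4 when 1 array was left out. The median there was 0.2338 after quantile normalization and 0.15 to 0.20 with 1 array left out. At 24 h, 32 called higher became 11 with 1.5-fold and 15 to 38 with 1 array left out; none called lower became 1 with the 2 groups alone and 0 to 1 with 1 array left out; the median was 0.2163 after quantile normalization and 0.235 to 0.275 with 1 array left out. At 48 h the median was 0.125 after centring and 0.065 to 0.12 with 1 array left out. Between 48 h and 24 h, 21 called lower became 6 with 1.5-fold and 13 to 26 with 1 array left out; 1 called higher became 0 with 1.5-fold, 2 with a trend, 3 with the 2 groups alone and 0 to 2 with 1 array left out; the median was -0.10 after centring. Between 24 h and A2780CP20, 21 called higher became 5 with 1.5-fold and 11 to 22 with 1 array left out; 8 called lower became 0 with 1.5-fold, 5 with the 2 groups alone and 2 to 10 with 1 array left out; the median was 0.0519 after quantile normalization. Fits with fewer arrays have fewer residual degrees of freedom; the cause was otherwise not tested. Equal replicate numbers were not taken as pairs: their deviations correlated at 0.117 to 0.181 among A2780CP20, 48 h and untreated A2780 but at 0.002 to 0.0387 with the 24 h arrays; with the number as a replicate block, 18 higher and 2 lower were called in A2780CP20, 30 and 0 at 24 h, 0 and 0 at 48 h, 1 and 20 between 48 h and 24 h, and 21 and 8 between 24 h and A2780CP20, and of the named members MRPS31 (48 h against 24 h) and MRPL27 (24 h against A2780CP20) lost the call, with adjusted p of 0.0539 and 0.0553 (limma). With 1 array left out of a pair, the lone array is assumed to vary like the other groups. Signal over background could not be judged, since no detection values were used here, and the 2 dim genes, MRPL13 and MRPS18C, carry the least signal.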
